A study of Mus musculus with 9 samples.

Results

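The livers of mice given doxycycline (Dox) were compared with those of control mice by RNA sequencing. The comparison takes 6 of the 9 samples of the study, 3 labelled Dox and 3 labelled Control, and describes the 12100 genes whose mean was at least 10 normalized counts over the 9 libraries. At the edge of that filter, the mean was 10 for Mfap4, which was kept, and 9.999 for Epha4, which was not. The study built mice in which a tetracycline-class drug switches a reporter gene and asked, in the liver, what the drugs themselves do to gene expression. The third group, given tetracycline (Tc), entered here through the means over the 9 libraries that filter genes and through the shared estimate of the spread.

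The series describes all its mice as Tet-OFF mice. In the study, that model carries a PB CAG-CreERT2 transgene, in which the ubiquitous CAG promoter drives a tamoxifen-dependent Cre, and has LSL-tTA and tetO-Venus-ires-mCherry inserted at Rosa26. All groups had received tamoxifen, and the mice were male. The age given is 4 weeks for all groups, which in the study is the age of the mice put on the drug for 7 days. Whether Dox and control livers were taken at the same age is not given in the sources used here. The Dox group drank Dox hyclate at 2 mg/mL in water with 10 mg/mL sucrose for 7 days, and whether the controls drank sucrose is not given in the sources used here. In Tet-OFF mice Dox also stops tTA from driving Venus, so the drug and the state of the reporter cannot be told apart between the groups. The labels do not tie the libraries of a group to separate animals or litters.

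Hepatocytes secrete most plasma proteins, among them the acute-phase proteins, which are made in large amounts when inflammatory cytokines such as IL-6 reach the liver. They also clear drugs in steps, oxidation by cytochrome P450 enzymes followed by conjugation by transferases, and run glucose, lipid and amino acid metabolism under hormonal control. Kupffer cells, sinusoidal endothelial cells and blood cells make up much of the rest of the organ. Dox is an antibiotic of the tetracycline class that binds bacterial ribosomes and can slow translation in mitochondria.

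The control libraries held 8250804 to 10912338 reads on genes, and the Dox libraries 7426136 to 10330238. Hepatocyte markers were high in all 6 libraries, with Alb (albumin) between 255547.5 and 1408836.3 normalized counts, and Y-linked Ddx3y was expressed in all of them, between 561.8 and 1139.9, as in male mice. Library 3 of each group stood apart, because a mixture of libraries 1 and 2 of the same group nearly matched it, with weights of 58.6% and 40.9% in controls and 61.3% and 34.4% with Dox. Of 4264 genes that differed over 2-fold between Dox 1 and Dox 2, Dox 3 lay between them for 4139. Dox 3 and control 3 therefore do not count as further mice. Standard errors and p-values that use them are too small, and the values of libraries 1 and 2 are given singly below. Between the first 2 control libraries, 586 genes differed over 2-fold.

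Against the controls, more genes fell than rose with Dox. In limma fitted to log2(normalized count + 1) of all 9 libraries, a gene was called when it changed over 2-fold with a Benjamini-Hochberg adjusted p under 0.05. By that rule 5% of the 12100 genes were called, 138 raised (1.14%) and 467 lowered (3.86%). Without using libraries 3, 58 genes (0.479%) lay over 2-fold above, and 301 (2.49%) over 2-fold below, both control libraries in both Dox 1 and Dox 2, which is a description with no test. Such genes are called apart in libraries 1 and 2 below, and 297 of the 359 (2.97% of genes) were also called. DESeq2 on recovered reads without libraries 3 called 43 genes raised (0.355%) and 102 lowered (0.843%), 1.2% together, 123 of them among the genes apart. Limma without libraries 3 called 0 genes, with 1040 at an unadjusted p under 0.05, and edgeR also called 0, with 1064 at an unadjusted p under 0.05. The split depended on the scaling. With every library set to the same total, the median of all genes moved by 0.17 on the log2 scale and 42.9% of called genes were raised, against 22.8% with the deposited scaling.

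The 2 Dox livers were far from alike. Dox 1 had 537 genes over 2-fold above and 1354 over 2-fold below the mean of control 1 and 2, and Dox 2 had 1479 above and 2128 below. Of these, 113 genes were above in both livers, 491 were below in both, and 355 were above in one and below in the other. All 605 called genes differed from the control mean in the same direction in both livers. A call weighs the change against the spread of these same libraries, so this agreement follows largely from the rule.

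**Figure D1:**
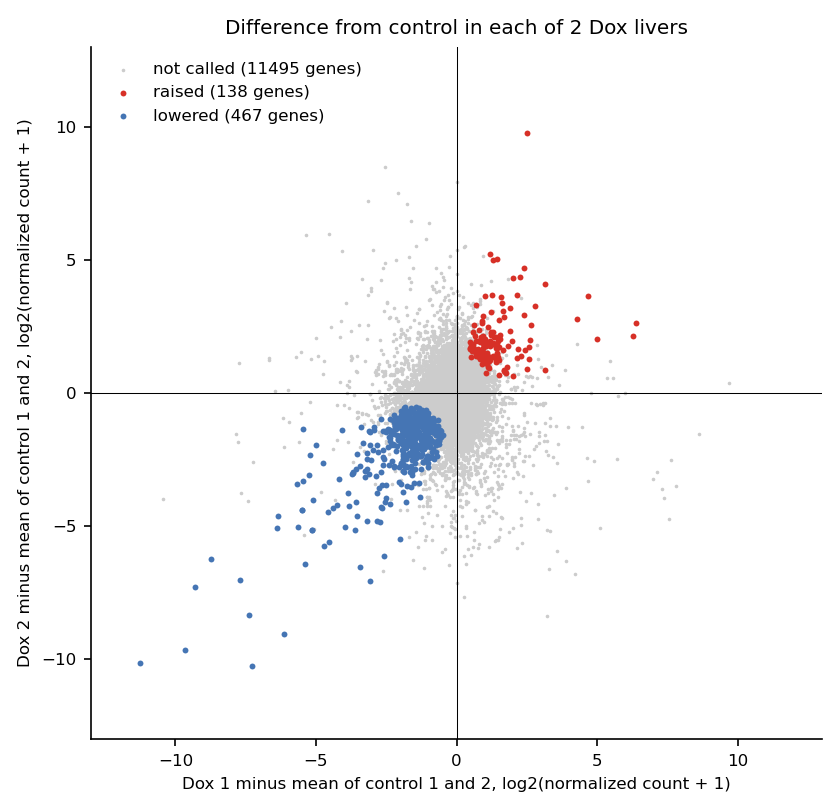
Each point is 1 of 12100 genes, with the difference of Dox 1 from the mean of control 1 and 2 on the x axis and that of Dox 2 on the y axis, both on log2(normalized count + 1). The 138 raised and 467 lowered genes sit in the upper right and lower left, while many uncalled genes spread along the y axis or into the other 2 quadrants.

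The gene lowered most was Muc13 (ENSMUSG00000022824, chromosome 16, 33794037 to 33819934 in GRCm38), a membrane mucin of epithelial cells. It had 1185.5, 5042.7 and 2713.1 normalized counts in the control libraries, and 0.0, 1.2 and 0.0 with Dox, so the groups did not overlap. Over the group, 8954 control reads stood against 1 Dox read, a ratio of 9248 with a 95% interval of 1659 to 365330 that covers counting error only. Slc34a2 (chromosome 5, 53038081 to 53071664), a sodium-phosphate cotransporter, had 3187.2, 2222.3 and 2814.8 in controls and 5.3, 34.5 and 15.8 with Dox. It fell by 7.45 ± 1.03 on the log2 scale (SE, limma adjusted p = 0.00937, DESeq2 without libraries 3 adjusted p = 1.13e-05). Isyna1 (chromosome 8, 70594373 to 70597290), which makes inositol phosphate from glucose 6-phosphate, fell from 5966.9, 4402.2 and 5520.3 to 60.0, 153.0 and 95.0, by 5.77 ± 1.0 on the log2 scale (SE, limma adjusted p = 0.0158, DESeq2 without libraries 3 adjusted p = 4.72e-04). For all 3 genes, every Dox library lay below every control library.

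Ptgds, a prostaglandin D synthase, fell from 1121.0, 542.3 and 845.5 to 14.7, 23.0 and 8.8 normalized counts, by 5.7 on the log2 scale (limma adjusted p = 0.00744, DESeq2 without libraries 3 adjusted p = 9.01e-06). A1bg, a plasma glycoprotein gene, had 1345.4, 136.2 and 750.1 in controls and 1.1, 2.3 and 1.8 with Dox. The control libraries of A1bg spread widely, but all lay above every Dox library, and it fell by 7.61 on the log2 scale (limma adjusted p = 0.038, DESeq2 without libraries 3 adjusted p = 0.0272). Ugt2b37, a glucuronosyltransferase with close paralogs, fell from 249.8, 321.1 and 321.7 to 32.6, 1.2 and 13.2 (limma adjusted p = 0.015, DESeq2 without libraries 3 adjusted p = 0.00835).

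The gene raised most was Ppp1r3g (chromosome 13, 35958839 to 35970388), a glycogen-targeting subunit of protein phosphatase 1. It had 3.2, 0.9 and 1.3 normalized counts in controls and 14.7, 2443.2 and 849.0 with Dox, so the size of its change rested on Dox 2. Its log2 fold change was 6.93 (standard error 1.61, limma adjusted p = 0.0363, DESeq2 without libraries 3 adjusted p = 0.00727). Dusp8, a MAP kinase phosphatase, the small transcription factor Maff and the stress-induced transcription factor Atf3 were also highest in Dox 2. Atf3 had 6.4, 8.8 and 8.9 in controls and 20.0, 270.3 and 122.3 with Dox (log2 fold change 3.31, standard error 0.78, limma adjusted p = 0.038, DESeq2 without libraries 3 adjusted p = 0.0215).

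Other raised genes were high in both Dox livers. Etnppl, which breaks down phosphoethanolamine, rose from 1431.1, 861.7 and 1104.8 to 4959.6, 14226.9 and 8050.9 normalized counts (log2 fold change 2.9, standard error 0.35, limma adjusted p = 0.00744, DESeq2 without libraries 3 adjusted p = 1.47e-04). Adora1, the adenosine A1 receptor, rose from 151.4, 140.7 and 106.8 to 544.4, 1344.7 and 836.7 (log2 fold change 2.68, standard error 0.34, limma adjusted p = 0.00744, DESeq2 without libraries 3 adjusted p = 0.00143). Acmsd, an enzyme of tryptophan breakdown that limits NAD synthesis, rose from 52.9, 28.3 and 40.7 to 186.4, 809.8 and 414.4 (limma adjusted p = 0.0118, DESeq2 without libraries 3 adjusted p = 0.00202). Epop, a chromatin protein associated with Polycomb complexes, had 7.6 to 11.6 in controls and 42.1 to 215.1 with Dox (limma adjusted p = 0.0128, DESeq2 without libraries 3 adjusted p = 0.00762).

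**Figure D2:**
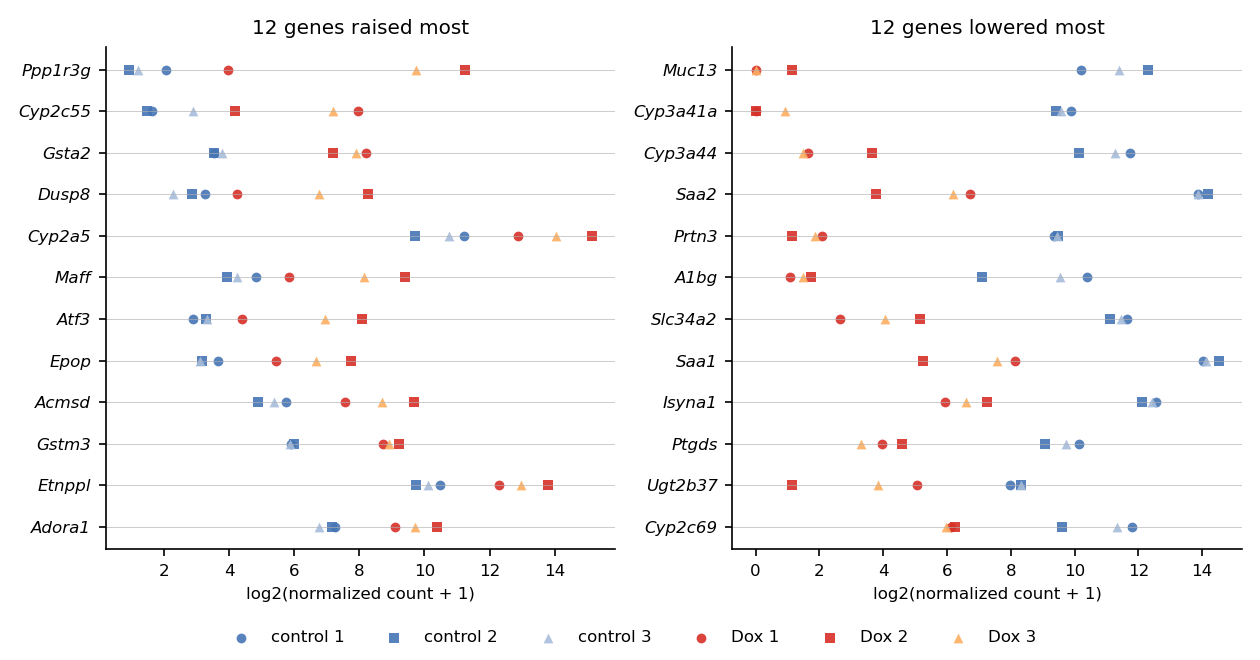
Points give log2(normalized count + 1) in each library for the 12 genes raised most (left) and the 12 lowered most (right), taken from called genes that averaged 50 or more and did not overlap between groups in libraries 1 and 2. Circles are libraries 1, squares libraries 2 and triangles libraries 3. Ppp1r3g spans 14.7 to 2443.2 normalized counts over the Dox livers, while Gstm3 spans only 422.2 to 593.6.

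Most acute-phase genes were lower in both Dox livers. The direction was the same in both for 24 of 32, while 2 lay above the control mean in Dox 1 and 6 in Dox 2. Of 32 acute-phase genes, 14 fell and 0 rose in limma (all genes: 3.86% lowered, 1.14% raised), 15 were apart below the controls in libraries 1 and 2 (all genes: 2.49%), and DESeq2 without libraries 3 called 7 lowered. Their median log2 fold change was -1.7, against 0.0 over all genes, and the medians of the single livers were close to each other, -1.61 in Dox 1 and -1.97 in Dox 2. The list made up 7.22% to 7.5% of all normalized counts in the control libraries and 2.65% to 2.88% with Dox. Its members were chosen with earlier results of these data known, so its share of called genes is no independent test. The promoters of the 2 members that fell most, and of the lowered members that hold a STAT motif, were as follows.
Saa1: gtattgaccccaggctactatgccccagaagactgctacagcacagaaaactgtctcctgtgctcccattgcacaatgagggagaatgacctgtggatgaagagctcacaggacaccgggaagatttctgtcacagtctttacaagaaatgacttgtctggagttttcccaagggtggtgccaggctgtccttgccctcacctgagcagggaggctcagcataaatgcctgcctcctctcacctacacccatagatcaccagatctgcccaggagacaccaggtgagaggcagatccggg
Saa2: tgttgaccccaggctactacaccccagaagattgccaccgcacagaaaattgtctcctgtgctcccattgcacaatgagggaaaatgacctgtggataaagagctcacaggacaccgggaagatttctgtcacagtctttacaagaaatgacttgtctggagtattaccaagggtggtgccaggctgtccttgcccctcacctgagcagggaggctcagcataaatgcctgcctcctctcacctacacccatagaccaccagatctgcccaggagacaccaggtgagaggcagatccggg
Apcs: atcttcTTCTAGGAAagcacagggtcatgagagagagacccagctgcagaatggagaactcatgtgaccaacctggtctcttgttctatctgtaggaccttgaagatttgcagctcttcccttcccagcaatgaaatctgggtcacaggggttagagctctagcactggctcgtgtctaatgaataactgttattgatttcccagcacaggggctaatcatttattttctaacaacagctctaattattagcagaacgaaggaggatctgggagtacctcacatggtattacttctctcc
Fga: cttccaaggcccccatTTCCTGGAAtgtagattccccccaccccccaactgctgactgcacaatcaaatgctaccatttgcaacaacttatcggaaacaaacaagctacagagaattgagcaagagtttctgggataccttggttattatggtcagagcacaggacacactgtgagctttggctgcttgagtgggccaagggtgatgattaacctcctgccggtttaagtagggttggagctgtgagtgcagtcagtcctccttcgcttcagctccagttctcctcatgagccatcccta
Fgb: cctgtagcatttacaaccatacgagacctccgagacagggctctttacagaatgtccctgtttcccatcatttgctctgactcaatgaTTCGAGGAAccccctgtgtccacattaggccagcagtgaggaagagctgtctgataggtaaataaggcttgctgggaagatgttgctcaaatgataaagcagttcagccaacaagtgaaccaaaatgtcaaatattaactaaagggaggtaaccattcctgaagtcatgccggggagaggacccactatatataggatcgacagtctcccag
Itih4: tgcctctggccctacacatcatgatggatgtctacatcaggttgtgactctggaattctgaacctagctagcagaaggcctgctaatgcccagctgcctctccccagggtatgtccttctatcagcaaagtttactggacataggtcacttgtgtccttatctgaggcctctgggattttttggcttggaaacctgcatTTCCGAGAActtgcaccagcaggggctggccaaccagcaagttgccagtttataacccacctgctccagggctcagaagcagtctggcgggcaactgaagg
Steap4: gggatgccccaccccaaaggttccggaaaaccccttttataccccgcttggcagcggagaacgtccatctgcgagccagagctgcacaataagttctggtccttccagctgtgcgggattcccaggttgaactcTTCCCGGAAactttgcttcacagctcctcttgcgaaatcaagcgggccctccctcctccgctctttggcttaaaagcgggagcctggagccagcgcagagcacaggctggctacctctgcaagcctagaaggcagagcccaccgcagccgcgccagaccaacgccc
These are RefSeq windows in GRCm38.p6, 250 bases before to 50 bases after the start of the gene, read 5′ to 3′ on the gene's own strand. They lie at chr7:46742931-46743230 for Saa1, chr1:172895005-172895304 for Apcs and chr3:83049814-83050113 for Fgb, all on the minus strand, and at chr7:46751583-46751882 for Saa2, chr3:83025903-83026202 for Fga, chr14:30886226-30886525 for Itih4 and chr5:7960222-7960521 for Steap4, on the plus strand. Capitals mark TTCNNNGAA, the core that STAT factors bind, which reads the same on both strands. The Saa1 and Saa2 windows hold no such match. Of the 32 genes, 26 had a window, and 7 of these held the motif, as did 5 of the 13 lowered genes with a window. Over all 27025 genes with a window the share was 9.55%. Both strands were searched for 4 further motifs in the same windows, which could overlap one another. TTGCGNAA, a C/EBP site, was in 2 of the 26 (all genes: 0.918%). An NF-kappaB site, searched as a single exact sequence with no variable positions, was in 0 (0.174%). Other forms of that site were not searched. TGACNNNGC, an antioxidant response core, was in 3 (14%), and TGACGTCA, a cyclic AMP response element, in 0 (2.03%). A match is a description of the letters and says nothing of binding in these livers.

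Saa1 and Saa2, neighbours on chromosome 7 with close sequence and uncertain division of reads, encode the serum amyloid A proteins that rise most in inflammation. Saa1 had 16763.8, 23518.7 and 17981.1 normalized counts in controls and 281.1, 36.8 and 190.0 with Dox. It fell by 7.24 ± 1.05 on the log2 scale (SE, limma adjusted p = 0.0103, DESeq2 without libraries 3 adjusted p = 9.01e-06). Saa2 was lowest in Dox 2 as well. Saa3 fell from between 106.9 and 127.1 to between 13.8 and 17.6 (limma adjusted p = 0.0401, DESeq2 without libraries 3 adjusted p = 0.133).

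Lrg1, a secreted leucine-rich glycoprotein, had 19041.8, 15176.9 and 19084.6 in controls and 2303.9, 1978.5 and 2172.2 with Dox. Its Dox livers were close together, and it fell by 3.04 ± 0.49 on the log2 scale (SE, limma adjusted p = 0.0138, DESeq2 without libraries 3 adjusted p = 0.00788). Apcs, serum amyloid P, fell from 6340.6, 6989.1 and 7984.2 to 976.1, 559.0 and 823.5 (log2 fold change -3.21, standard error 0.68, limma adjusted p = 0.0274, DESeq2 without libraries 3 adjusted p = 0.0465). Orm2, an acid glycoprotein with close paralogs, fell from 828.8, 997.9 and 1162.0 to 93.7, 118.5 and 112.6 (log2 fold change -3.18, limma adjusted p = 0.0186, DESeq2 without libraries 3 adjusted p = 0.0245). Its paralog Orm1 had a log2 difference of -1.82 and was not called (limma adjusted p = 0.0619). Orm3 differed from the control mean by -2.81 in Dox 1 and 0.98 in Dox 2. Itih4, an inter-alpha-trypsin inhibitor heavy chain, fell from 111512.3, 75118.3 and 93354.6 to 19486.5, 13294.0 and 16591.8 (log2 fold change -2.5, limma adjusted p = 0.0241, DESeq2 without libraries 3 adjusted p = 0.0371).

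The 3 fibrinogen chains fell together. Fgb had 96031.4, 91643.5 and 87091.8 in controls and 33991.4, 20482.3 and 28190.9 with Dox (log2 fold change -1.76, standard error 0.4, limma adjusted p = 0.0354, DESeq2 without libraries 3 adjusted p = 0.104). Fga and Fgg fell by 1.82 and 1.81 on the log2 scale (limma adjusted p = 0.0491 and 0.0427, DESeq2 without libraries 3 adjusted p = 0.219 and 0.211). Hp, haptoglobin, fell from between 71345.5 and 86725.5 to between 17091.0 and 33221.9 (limma adjusted p = 0.0389, DESeq2 without libraries 3 adjusted p = 0.193). Lcn2, lipocalin 2, had 5136.0, 5041.0 and 6067.0 in controls and 24.2, 376.1 and 141.6 with Dox, every Dox library far below the controls, with a log2 difference of -5.61 and a limma adjusted p of 0.0639.

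Of the receptors and regulators on the list, 3 of IL-6 signalling were not lowered in both livers. Socs3, a feedback inhibitor of IL-6 signalling, differed from the control mean by -0.79 in Dox 1 and 1.76 in Dox 2 on the log2 scale. Stat3, the factor that carries the IL-6 signal, differed by -0.86 and 0.07, and Il6ra, the IL-6 receptor chain, by -1.15 and 0.64. None of the 3 was called. Il1rn, the IL-1 receptor antagonist, was lower in both, by -3.36 in Dox 1 and -0.77 in Dox 2, and was not called either (limma adjusted p = 0.13). Among 36 complement and coagulation factors, 1 fell and 0 rose (all genes: 3.86% lowered), with 34 of 36 log2 differences below 0 and a median of -0.78. That median was -0.24 in Dox 1 and -1.42 in Dox 2. C4b, a complement component, fell from 31614.9, 34970.1 and 33681.3 to 16531.8, 5361.6 and 11951.9 (log2 fold change -1.71, limma adjusted p = 0.0318, DESeq2 without libraries 3 adjusted p = 0.176), and C3 was apart below the controls at 96657.4 to 104814.3 against 268772.2 to 341125.0 (limma adjusted p = 0.0698).

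Some genes that mark macrophages, endothelium and blood cells also fell with Dox, and fewer of them were called without libraries 3. Over all genes, limma lowered 3.86% and DESeq2 without libraries 3 lowered 0.843%. In bulk tissue, fewer cells of a type and less RNA per cell cannot be told apart. Of 16 Kupffer cell and macrophage genes, 5 fell and 0 rose (all genes: 3.86% lowered), DESeq2 without libraries 3 called 2 lowered, all 16 log2 differences were below 0, and their median was -1.63. The summed level of the list was 12174.1 to 21582.1 normalized counts in controls and 3539.1 to 11360.4 with Dox. Clec4f, a lectin of Kupffer cells, had 2148.8, 3405.2 and 2497.0 in controls and 623.4, 899.5 and 688.0 with Dox (log2 fold change -1.85, standard error 0.26, limma adjusted p = 0.00958, DESeq2 without libraries 3 adjusted p = 0.0196). Folr2, a folate receptor of resident macrophages, fell from 189.5, 234.4 and 265.7 to 43.2, 77.1 and 58.1 (limma adjusted p = 0.0123, DESeq2 without libraries 3 adjusted p = 0.0714). In Dox 1 all 16 genes lay over 2-fold below the control mean, while in Dox 2 only 5 did and 2 lay over 2-fold above.

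Of 17 sinusoidal endothelial genes, 5 fell and 0 rose (all genes: 3.86% lowered), with a median of -0.74, and DESeq2 without libraries 3 called 2 lowered. Stab2, a scavenger receptor, had 2013.3, 1821.6 and 1992.2 in controls and 820.3, 867.3 and 818.2 with Dox. Dox 1 and Dox 2 lay close together, and Stab2 fell by 1.22 ± 0.12 on the log2 scale (SE, limma adjusted p = 0.00468, DESeq2 without libraries 3 adjusted p = 0.00444). Stab1, its relative, fell from between 1386.7 and 1556.2 to between 331.3 and 620.2 (limma adjusted p = 0.00821, DESeq2 without libraries 3 adjusted p = 0.0171). Lyve1, another receptor of these cells, had 96.9 in Dox 1 and 318.6 in Dox 2, on either side of the control range of 177.8 to 244.1. Of 17 stellate cell and collagen genes, 0 were called, with a median of -0.36.

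The neutrophil list had 20 genes, of which 9 passed the filter, 3 fell and 0 rose (all genes: 3.86% lowered), and DESeq2 without libraries 3 called 2 lowered. In Dox 2, 3 of the 9 lay above the control mean. S100a8 and S100a9, the abundant calcium-binding proteins of neutrophils, differed from it by 2.11 and 0.42 on the log2 scale in Dox 2 and by -2.0 and -4.16 in Dox 1. Prtn3, a granule protease, had 652.1, 720.1 and 699.3 in controls and 3.2, 1.2 and 2.6 with Dox, and fell by 7.76 ± 1.32 on the log2 scale (SE, limma adjusted p = 0.015, DESeq2 without libraries 3 adjusted p = 4.99e-05). Its level in controls stood far above that of other granule proteases on the list. Mmp9 was at 20.1 to 84.9 in controls, while Elane, at 3.2 to 20.3, and Ctsg, at 2.1 to 8.9, did not pass the filter. The neutrophil marker Ly6g was at 0.9 to 2.1 in controls. Mpo, myeloperoxidase, had 9.5, 111.5 and 66.1 in controls and 0.0, 1.2 and 0.9 with Dox. Of 12 erythroid genes 5 fell and 0 rose (all genes: 3.86% lowered), with a median of -1.71, and DESeq2 without libraries 3 called 2 lowered. Slc4a1, the red cell anion exchanger, fell from 54.0, 107.0 and 54.7 to 5.3, 1.2 and 1.8 (limma adjusted p = 0.00942, DESeq2 without libraries 3 adjusted p = 0.00515), while the haemoglobin gene Hbb-bt, close in sequence to its neighbours, had 137.6, 661.7 and 419.6 in controls and 80.0, 47.2 and 81.8 with Dox (limma adjusted p = 0.0318, DESeq2 without libraries 3 adjusted p = 0.0465). Not all of the list was lower. Klf1, an erythroid transcription factor, had 8.5, 23.0 and 25.4 in controls and 43.2, 64.4 and 47.5 with Dox (limma adjusted p = 0.057), and Alas2, which starts heme synthesis in red cells, had 118.6 to 335.3 in controls, 1367.8 in Dox 1 and 46.0 in Dox 2. The summed erythroid level overlapped between the groups, at 1998.5 to 6566.2 in controls and 1138.8 to 2772.5 with Dox.

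Of 4 B cell genes that passed the filter, Igkc and Cd22 fell, and of 2 T and NK cell genes that passed, Il2rb fell (all genes: 3.86% lowered). None of the 3 was called by DESeq2 without libraries 3, with adjusted p = 0.165, 0.384 and 0.173. All 8 MHC class II genes had log2 differences below 0, with a median of -2.1, and 1 fell. The median was -1.05 in Dox 1 and -3.47 in Dox 2. H2-Ab1, a class II chain, had 150.3, 497.2 and 353.4 in controls and 129.5, 17.3 and 78.3 with Dox (limma adjusted p = 0.0916). Of 13 chemokines 1 fell, the platelet chemokine Ppbp, with 19.1, 68.1 and 61.0 in controls and 2.1, 1.2 and 0.0 with Dox. Of 38 interferon-stimulated genes, 3 fell and 0 rose (all genes: 3.86% lowered), and DESeq2 without libraries 3 called 0. Their medians were -0.12 in Dox 1 and -1.46 in Dox 2. The part of these cell types in the acute-phase values was not tested.

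**Figure D3:**
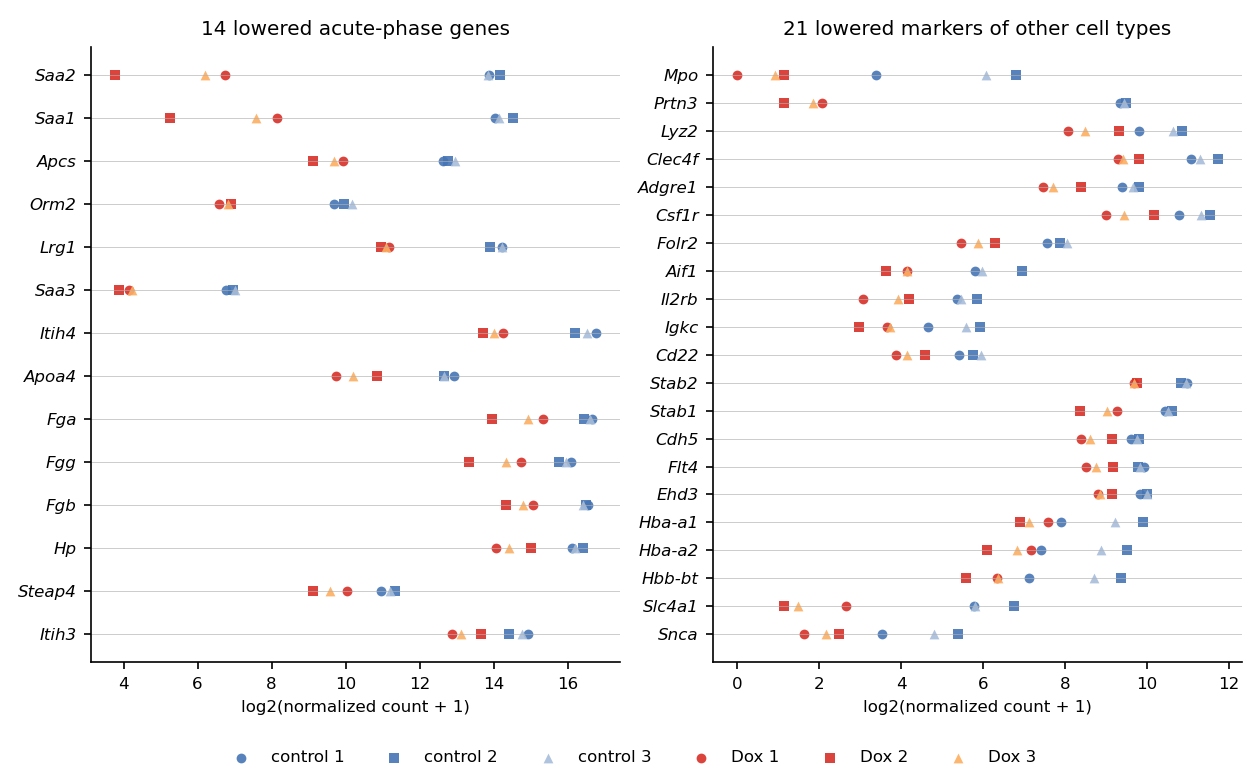
Points give log2(normalized count + 1) per library for the 14 lowered acute-phase genes (left) and for the lowered markers of neutrophils, macrophages, lymphocytes, endothelium and erythroid cells (right). Circles are libraries 1, squares libraries 2 and triangles libraries 3. The control libraries of Lrg1 sit between 15176.9 and 19084.6 normalized counts and the Dox libraries between 1978.5 and 2303.9.

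Genes of drug metabolism moved in both directions. Of 34 genes of the CAR and PXR list, nuclear receptors that sense drugs, 5 rose and 5 fell (all genes: 1.14% and 3.86%), 4 were apart above and 8 below the controls in libraries 1 and 2, and the median was 0.14. Cyp2a5, a coumarin hydroxylase, rose from 2384.9, 828.1 and 1734.2 normalized counts to 7440.4, 36492.2 and 17022.9 (log2 fold change 3.47, standard error 0.59, limma adjusted p = 0.015, DESeq2 without libraries 3 adjusted p = 0.00236). Cyp2c55 had 2.1, 1.8 and 6.4 in controls and 245.3, 17.3 and 145.2 with Dox, highest in Dox 1 (log2 fold change 4.45, standard error 1.15, limma adjusted p = 0.0499, DESeq2 without libraries 3 adjusted p = 0.0135). The classical CAR target Cyp2b10 had 149.3 to 220.3 in controls, 22.1 in Dox 1 and 7464.3 in Dox 2, and was not called (limma adjusted p = 0.468).

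Cytochromes that fell were in close paralog families, where the division of uniquely mapped reads is uncertain. Cyp3a44 had 3406.3, 1137.7 and 2453.8 in controls and 2.1, 11.5 and 1.8 with Dox (log2 fold change -8.8, standard error 1.8, limma adjusted p = 0.0249, DESeq2 without libraries 3 adjusted p = 0.0215). Cyp3a41a had 687.4 to 950.6 in controls and 1 read over the 3 Dox libraries, a ratio of 2352 with a 95% counting interval of 422 to 92933. Cyp2c69 fell from 3557.7, 777.6 and 2552.9 to 68.4, 74.8 and 61.6 (limma adjusted p = 0.00744, DESeq2 without libraries 3 adjusted p = 1.25e-05). Within the Cyp3a family, Cyp3a25 and Cyp3a59 rose, by 1.48 and 2.21 on the log2 scale (limma adjusted p = 0.015 and 0.0213, DESeq2 without libraries 3 adjusted p = 0.0555 and 0.0977).

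Of 20 glutathione transferases, which conjugate electrophiles, 4 rose and 1 fell (all genes: 1.14% and 3.86%), and DESeq2 without libraries 3 called 3 raised and 1 lowered (all genes: 0.355% and 0.843%). Gstm3 had 58.2, 62.8 and 57.2 in controls and 422.2, 593.6 and 483.9 with Dox, with libraries 1 and 2 of each group close together (log2 fold change 3.04, standard error 0.57, limma adjusted p = 0.0189, DESeq2 without libraries 3 adjusted p = 0.022). Gstm1 rose from 2729.9, 2911.5 and 2992.8 to 13691.9, 7319.4 and 10745.7 (log2 fold change 1.83, standard error 0.31, limma adjusted p = 0.015, DESeq2 without libraries 3 adjusted p = 0.0386). Gsta2, the most raised of the family, had 295.9 in Dox 1 and 143.8 in Dox 2 against 10.6 in both controls. Gstm5 fell from 233.9, 552.0 and 443.7 to 56.9, 32.2 and 50.1 (log2 fold change -3.07, standard error 0.33, limma adjusted p = 0.00519, DESeq2 without libraries 3 adjusted p = 8.49e-05). The list median was 0.43 over all libraries, 0.83 in Dox 1 and -0.58 in Dox 2.

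Of 25 further NRF2 targets, the genes of the oxidative stress factor, 2 rose and 0 fell (all genes: 1.14% and 3.86%). Osgin1 had 506.9 to 868.0 in controls and 1285.7 to 2814.8 with Dox (limma adjusted p = 0.0267), and Ephx1, an epoxide hydrolase, 500.7 to 978.5 and 1279.1 to 6141.0 (limma adjusted p = 0.049), and neither passed in DESeq2 without libraries 3, with adjusted p = 0.131 and 0.148. Nqo1, the standard reporter of that factor, had 46.6 to 57.5 in controls, 41.1 in Dox 1 and 93.2 in Dox 2 (limma adjusted p = 0.642). Of 16 sulfotransferases, 1 fell and 3 were apart below the controls (all genes: 3.86% lowered, 2.49% apart below). Sult5a1 had 454.1, 351.2 and 428.5 in controls and 117.9, 34.5 and 95.0 with Dox (limma adjusted p = 0.0144, DESeq2 without libraries 3 adjusted p = 0.0215).

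Some genes of lipid, methyl-group and amino acid metabolism were called, out of lists in which most members were not. Over all genes, limma raised 1.14% and lowered 3.86%. Gpam, which makes the first acyl intermediate of triglycerides, had 1741.3, 1657.0 and 1895.6 normalized counts in controls and 4638.4, 4839.3 and 4537.0 with Dox (log2 fold change 1.41, standard error 0.15, limma adjusted p = 0.00503, DESeq2 without libraries 3 adjusted p = 4.69e-04). It was the 1 called gene of 21 in the lipogenic list. Abcg5 and Abcg8 form the sterol exporter of the canalicular membrane, and Abcg8 had 690.2, 458.3 and 605.2 in controls and 2208.1, 2208.6 and 2225.9 with Dox. It rose by 1.94 ± 0.23 on the log2 scale (SE, limma adjusted p = 0.0067, DESeq2 without libraries 3 adjusted p = 0.00325), and Abcg5 by 1.59 (limma adjusted p = 0.00744, DESeq2 without libraries 3 adjusted p = 0.00939). The annotated spans of Abcg5 and Abcg8 overlap on chromosome 17 and the strand setting of the counting is not given in the sources used here, so reads in the overlap may count for either. They were the 2 called genes of 29 in the bile acid and transport list, whose median was -0.38, and Cyp7a1, the rate-limiting enzyme of bile acid synthesis, had 786.5 to 1850.3 in controls and 131.1 to 945.6 with Dox (limma adjusted p = 0.161).

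Tdo2, which opens the ring of tryptophan, rose from 5820.8, 6244.2 and 5890.3 to 16846.7, 23146.4 and 18362.0 (log2 fold change 1.69, standard error 0.2, limma adjusted p = 0.00744, DESeq2 without libraries 3 adjusted p = 9.04e-04). Uroc1, an enzyme of histidine breakdown, fell from 15609.0, 11363.0 and 13528.7 to 6479.0, 4701.3 and 5675.5 (limma adjusted p = 0.0122, DESeq2 without libraries 3 adjusted p = 0.0388). Of 37 genes of amino acid breakdown, 2 rose and 1 fell (all genes: 1.14% and 3.86%), and the list median was 0.19.

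Bhmt, which remethylates homocysteine with betaine, fell from 15351.8, 17502.8 and 15168.8 to 5084.9, 3406.0 and 4272.2 (log2 fold change -1.93, standard error 0.19, limma adjusted p = 0.00503, DESeq2 without libraries 3 adjusted p = 4.52e-05). Mat2a, which makes S-adenosylmethionine, rose from between 280.4 and 332.4 to between 547.6 and 1143.4 (limma adjusted p = 0.0203, DESeq2 without libraries 3 adjusted p = 0.133). With Pemt, which makes phosphatidylcholine by methylation and rose to 1154.9 in Dox 2 and 2021.7 in Dox 1 from 305.9 to 452.1, they were the 3 called genes of 24 in the choline and methyl-group list. The list median was -0.16, and 0.02 with every library set to the same total.

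Among 38 PPAR-alpha targets and fatty acid oxidation genes, 1 rose and 3 fell (all genes: 1.14% and 3.86%). Their median was -0.02 (0.16 with the same total per library). Acot1, an acyl-CoA thioesterase, rose from 80.4, 63.7 and 80.1 to 170.6, 360.0 and 249.9 (limma adjusted p = 0.0114, DESeq2 without libraries 3 adjusted p = 0.0294). Hacl1, a peroxisomal lyase of alpha-oxidation, had 8413.1, 12164.5 and 9933.3 in controls and 1638.4, 1544.9 and 1572.2 with Dox. Of 25 lipid droplet genes 3 rose and 0 fell, Plin4, Cidec and the phosphatidate phosphatase Lpin2. Lpin2 had 1381.9 to 2036.6 in controls, 3945.5 in Dox 1 and 13847.3 in Dox 2 (limma adjusted p = 0.0186, DESeq2 without libraries 3 adjusted p = 0.023). Plin4 and Cidec were not called by DESeq2 without libraries 3 (adjusted p = 0.238 and 0.24). Of 17 apolipoproteins 2 fell, Apom and Apoa4, the latter also on the acute-phase list, with 6463.6 to 7840.5 in controls and 845.5 to 1834.7 with Dox (limma adjusted p = 0.0172, DESeq2 without libraries 3 adjusted p = 0.0465). Apom was not called by DESeq2 without libraries 3 (adjusted p = 0.138).

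Bcl6, a transcriptional repressor known to share binding sites with STAT5, had 54.0, 75.2 and 64.8 in controls and 341.2, 498.1 and 371.3 with Dox (log2 fold change 2.62, standard error 0.44, limma adjusted p = 0.015, DESeq2 without libraries 3 adjusted p = 0.0187). Cish, a direct target of STAT5 below the growth hormone receptor, fell from 641.5, 345.9 and 474.2 to 124.3, 107.0 and 124.0 (log2 fold change -1.99, standard error 0.26, limma adjusted p = 0.00773, DESeq2 without libraries 3 adjusted p = 0.00701). Cdh1, E-cadherin, rose from 273.1, 376.9 and 358.5 to 829.8, 1133.0 and 885.1 (log2 fold change 1.5, standard error 0.19, limma adjusted p = 0.00744, DESeq2 without libraries 3 adjusted p = 0.00865). Sox9, a bile duct factor on the bile duct and periportal lists, had 15.0 to 28.0 in controls and 45.3 to 69.0 with Dox (limma adjusted p = 0.0243, DESeq2 without libraries 3 adjusted p = 0.166).

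In several lists, part of the members lay over 2-fold above the control mean in one Dox liver and over 2-fold below it in the other. This was so for 9 of 21 lipogenic genes, 2 of 25 cholesterol genes and 15 of 29 genes of growth hormone signalling and its targets. It was also so for 7 of 26 immediate early genes, 5 of 24 fasting genes, 6 of 22 glucocorticoid receptor targets and 2 of 12 metallothionein and zinc transporter genes. Over all 12100 genes, 355 did so. Lists not named here held such genes too. Among 16 sulfotransferases, 1 was above in Dox 1 and below in Dox 2, and 6 were the reverse. These are differences between single livers and were not tested. Lipogenic genes lay above the control mean in Dox 1 for 20 of 21 genes and in Dox 2 for 3, with medians of 1.2 and -1.48 on the log2 scale. Scd1, the main stearoyl-CoA desaturase, had 11964.5 to 15732.5 normalized counts in controls, 165274.2 in Dox 1 and 225.5 in Dox 2. Fasn, fatty acid synthase, had 6348.0 to 10181.0, 18635.7 and 1317.1 in the same order. Genes of cholesterol synthesis and uptake had medians of 0.31 in Dox 1 and -1.52 in Dox 2, and of 25 genes 1 fell and 0 rose (all genes: 3.86% lowered).

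Of 29 genes of growth hormone signalling and its targets, 1 rose and 1 fell (all genes: 1.14% and 3.86%), the Bcl6 and Cish values given above. Of the 29, 9 lay over 2-fold above the controls in Dox 1 and over 2-fold below in Dox 2, and 6 the reverse. Elovl3, a fatty acid elongase higher in male liver, had 4.2 to 5.3 in controls, 1130.9 in Dox 1 and 0.0 in Dox 2. The major urinary protein gene Mup20, close in sequence to its family, had 128.1 to 343.3 in controls, 33770.2 in Dox 1 and 16.1 in Dox 2. Sult2a1, a sulfotransferase known as higher in female liver, went the other way, with 10.6 to 146.1 in controls, 0.0 in Dox 1 and 2554.8 in Dox 2. Cyp2b9, another gene higher in female liver, was below the controls in both, at 1.1 and 178.3 against 2486.5 to 3246.8. Ghr, the growth hormone receptor, had 3377.8 to 4106.5 in controls, 7254.0 in Dox 1 and 471.6 in Dox 2.

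Immediate early genes were high in Dox 2, where 25 of 26 lay above the control mean (7 in Dox 1), with medians of 2.46 in Dox 2 and -0.45 in Dox 1. Only Atf3 and Gadd45a were called, both raised (all genes: 1.14%). Gadd45a was not called by DESeq2 without libraries 3 (adjusted p = 0.234). Myc had 80.5 to 203.2 in controls, 14.7 in Dox 1 and 1855.4 in Dox 2, and Gadd45g, a growth arrest gene, 207.9 to 238.2, 13.7 and 2336.3. Gluconeogenesis and fasting genes had medians of -0.23 in Dox 1 and 1.49 in Dox 2, and 2 of 24 rose (all genes: 1.14%). G6pc, the last step of glucose release, had 3054.9, 3727.2 and 3585.3 in controls and 7264.5, 6620.0 and 6889.6 with Dox (log2 fold change 1.01, limma adjusted p = 0.015, DESeq2 without libraries 3 adjusted p = 0.123), and Sik1, a kinase induced by cyclic AMP, 143.3 to 242.4 and 443.3 to 2378.8 (limma adjusted p = 0.027, DESeq2 without libraries 3 adjusted p = 0.0294). Igfbp1, a secreted binding protein that rises in fasting, went from 356.5 to 845.8 in controls to 61.1 in Dox 1 and 82200.5 in Dox 2.

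Glucocorticoid receptor targets had medians of -0.66 in Dox 1 and 1.23 in Dox 2, and 0 of 22 were called. Tat, an aminotransferase on that list, had 11816.8 to 21169.4 in controls, 13817.2 in Dox 1 and 159363.9 in Dox 2. The metallothioneins Mt1 and Mt2, which bind zinc, were low in Dox 1, at 74.8 and 25.3, and high in Dox 2, at 10046.7 and 6629.2, with control ranges of 3016.8 to 4140.9 and 2342.5 to 2998.2. Clock genes had log2 differences above 0 in 16 of 18, with a median of 0.71, 0.51 in Dox 1 and 0.66 in Dox 2. Of the 18, 2 rose, Ciart and Bhlhe40 (all genes: 1.14% raised). Neither was called by DESeq2 without libraries 3 (adjusted p = 0.317 and 0.196). Arntl, the activator at the centre of the clock, had 37.0 to 62.8 in controls, 8.4 in Dox 1 and 349.7 in Dox 2, and the time of day of sampling is not given in the sources used here. Mup20, Fasn, Myc, Igfbp1 and Sult2a1, and elsewhere Fga, Fgg, Itih4, Steap4, Klf1, Alas2, Il6ra, Stat3, Socs3, Cyp3a25, Cyp3a59 and mt-Nd6, were chosen for mention after their values were seen. So were Orm1, Orm3, Il1rn, Mmp9, Elane, Ctsg and Ly6g.

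**Figure D4:**
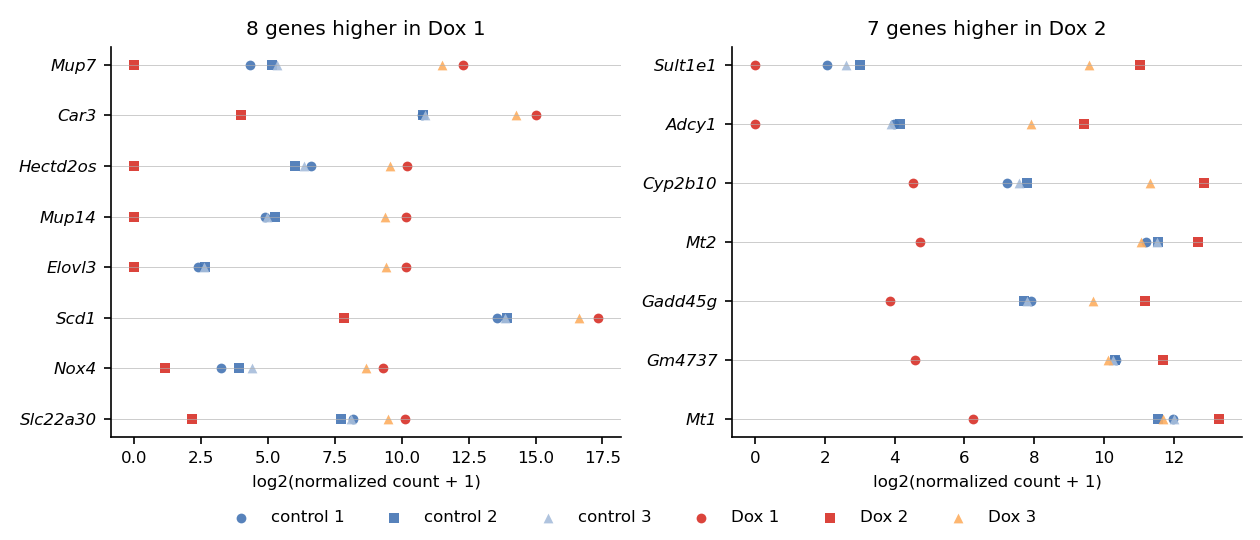
Points give log2(normalized count + 1) per library for 8 genes that were higher in Dox 1 (left) and 7 of the 8 higher in Dox 2 (right) by the largest difference, among genes with a mean of at least 50 whose control 1 and 2 lay within 2-fold. Circles are libraries 1, squares libraries 2 and triangles libraries 3. The control libraries cluster, as for Car3 at 1722.2 to 1861.3 normalized counts, while Dox 1 stands at 33016.3 and Dox 2 at 15.0.

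Since tetracyclines act on bacterial and mitochondrial ribosomes, transcripts for mitochondria were listed too. Of 13 listed transcripts of the mitochondrial genome, 7 passed the filter. All 7 had log2 differences above 0, with a median of 0.92, 1.07 in Dox 1 and 1.09 in Dox 2. These 7 made up 0.791% to 1.13% of normalized counts in controls and 1.87% to 2.38% with Dox. That share leaves out the other mitochondrial transcripts. Limma called 0 of 7 and DESeq2 without libraries 3 called 3 raised (all genes: 0.355%). mt-Nd1, a complex I subunit, had 13929.1, 8695.6 and 15501.9 in controls and 23288.8, 32945.8 and 25507.6 with Dox (limma adjusted p = 0.0689, DESeq2 without libraries 3 adjusted p = 0.0639), and mt-Nd6, on the other strand, had log2 differences of 0.24 in Dox 1 and -0.18 in Dox 2.

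Nuclear genes for mitochondria had medians nearer 0. The median log2 difference was 0.08 over 77 mitochondrial ribosomal proteins, 0.04 over 30 translation factors and aminoacyl-tRNA synthetases, 0.19 over 36 complex I subunits and 0.32 over 42 subunits of complexes II to V, with 0 called in each. Of 22 mitochondrial chaperones and proteases 0 were called, and Hspa9, the mitochondrial HSP70, had 4118.7, 4285.4 and 3948.9 in controls and 6412.7, 6327.8 and 5833.0 with Dox, a log2 difference of 0.59 (limma adjusted p = 0.0374) under the 2-fold limit. Hspd1, its chaperonin partner, had 2522.4 to 2711.9 in controls and 2981.6 to 3207.4 with Dox (limma adjusted p = 0.268). Of 27 ATF4 targets of the integrated stress response, 1 rose and 2 fell (all genes: 1.14% and 3.86%). Atf5, a transcription factor of that response, fell from 4251.0, 4660.6 and 4152.3 to 1611.1, 1046.8 and 1478.0 (log2 fold change -1.68, standard error 0.24, limma adjusted p = 0.0103, DESeq2 without libraries 3 adjusted p = 0.0172), the opposite direction to Atf3, which stands on the same list. Atf4 itself had 486.6 to 548.3 in controls, 639.2 in Dox 1 and 1425.2 in Dox 2 (limma adjusted p = 0.0747). Endoplasmic reticulum stress genes had 0 of 25 called and medians of 0.03 in Dox 1 and -0.98 in Dox 2, and cytosolic ribosomal proteins 0 of 79, with -0.03 and 0.8.

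Of 31 cell cycle genes, 5 fell and 1 rose (all genes: 3.86% and 1.14%), with a median of -0.78, and DESeq2 without libraries 3 called 0 in either direction. Ccnd1, cyclin D1, had 995.0, 519.3 and 804.8 in controls and 176.9, 15.0 and 119.7 with Dox (log2 fold change -3.42, standard error 0.79, limma adjusted p = 0.0363, DESeq2 without libraries 3 adjusted p = 0.117). Ccna2, cyclin A2, fell from between 22.2 and 30.5 to between 5.8 and 7.4 (limma adjusted p = 0.015, DESeq2 without libraries 3 adjusted p = 0.279), while Ccne1, cyclin E1, rose from between 12.4 and 13.8 to between 24.2 and 44.2 (limma adjusted p = 0.0243, DESeq2 without libraries 3 adjusted p = 0.407). Of 24 autophagy and lysosome genes 2 rose, Sqstm1 and Gabarapl1 (all genes: 1.14% raised). Sqstm1, which carries cargo to autophagosomes, had 2351.5 to 2581.7 in controls and 3633.8 to 7336.6 with Dox (limma adjusted p = 0.0363, DESeq2 without libraries 3 adjusted p = 0.258). For Gabarapl1, limma gave an adjusted p of 0.0315 and DESeq2 without libraries 3 an adjusted p of 0.291.

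In the remaining lists few genes were called, beside 1.14% raised and 3.86% lowered over all genes. Of 14 hepatocyte identity genes 1 fell, Fgb, with medians of 0.01 in Dox 1 and -1.11 in Dox 2, and Alb took 9.9% to 12.8% of normalized counts in controls and 2.99% to 6.07% with Dox (limma adjusted p = 0.208). Of 20 periportal genes 2 rose and 1 fell, of 22 pericentral genes 1 fell, of 17 glycogen genes 1 rose, Ppp1r3g, and of 23 iron genes 1 fell, Hp, with a median of -0.09 (0.08 with the same total per library). Of 6 bile duct genes 1 rose, Sox9, and of 16 heme genes and 12 metallothionein and zinc transporter genes 0 were called. Glul, glutamine synthetase of the cells around the central vein, had 7868.0 to 9383.0 in controls and 7403.3 to 10230.8 with Dox, and Hamp, hepcidin, had 942.1 to 1187.7 in controls, 1020.3 in Dox 1 and 7222.7 in Dox 2 (limma adjusted p = 0.168).

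**Figure D5:**
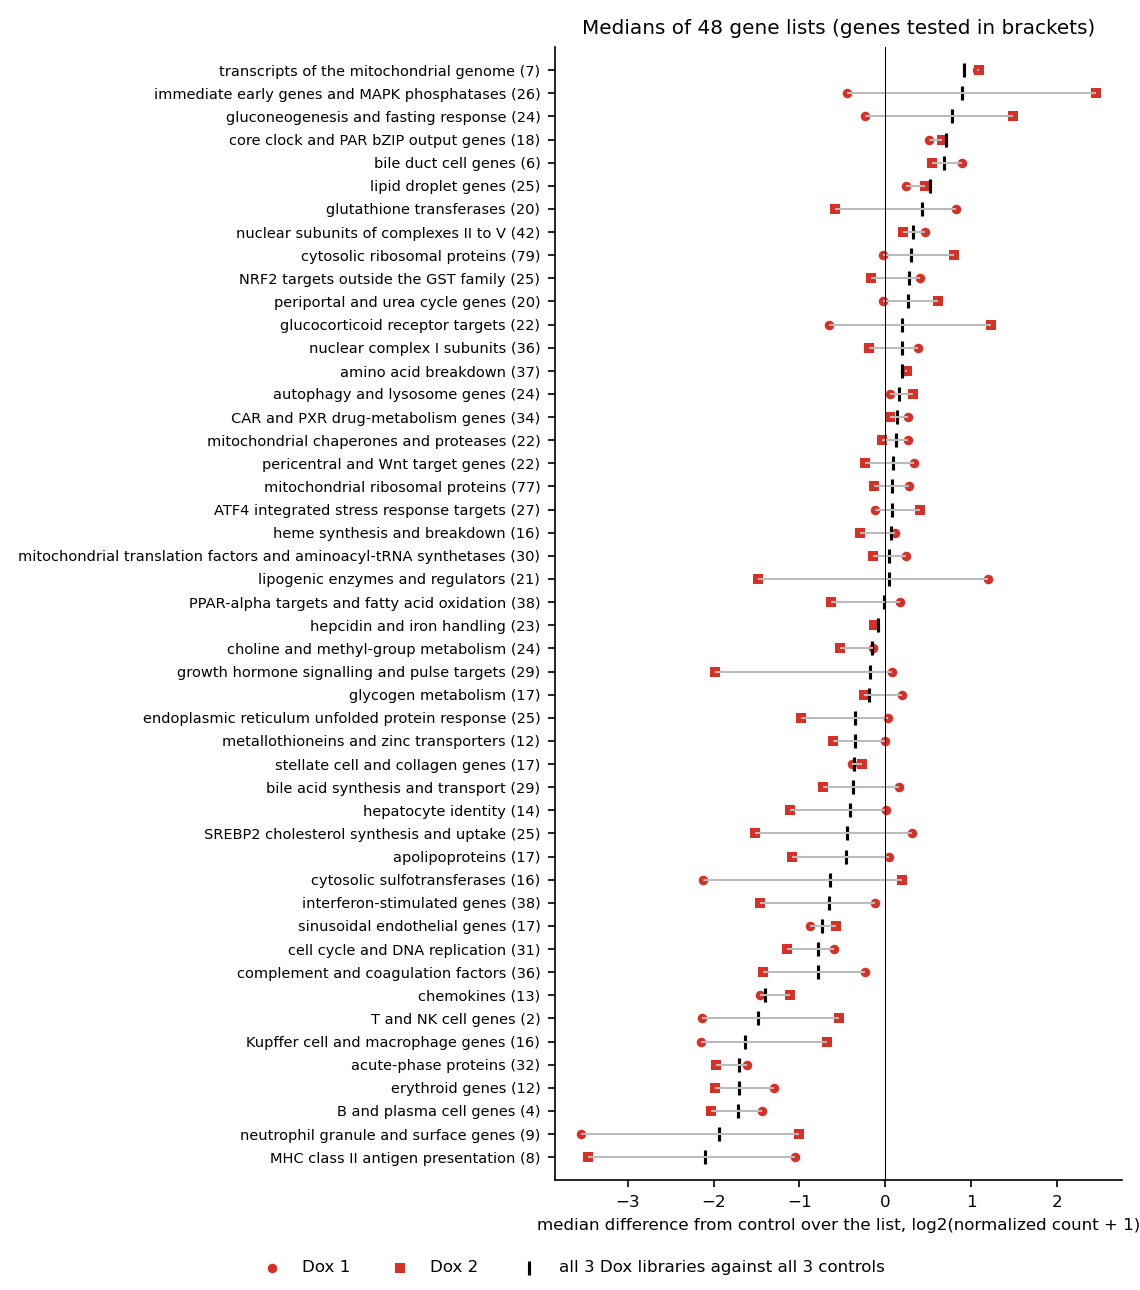
Each line is 1 of 48 gene lists, with the median difference from control on log2(normalized count + 1) in Dox 1 (circle), in Dox 2 (square) and over all 3 Dox libraries against all 3 controls (bar). Acute-phase proteins lie at -1.61 and -1.97 in the 2 livers, whereas immediate early genes lie at -0.45 and 2.46 and lipogenic genes at 1.2 and -1.48.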

How the data were processed

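Liver RNA was measured in 9 libraries, 3 each from control, Dox and Tc mice. The authors trimmed single-end reads with cutadapt, aligned them to mm10 with STAR 2.7.11ac, counted uniquely mapped reads per gene with HTSeq 2.0.5 and normalized with DESeq2 1.42.0. The signal they deposited is the normalized count, each gene's reads over the size factor of its library. Of 32285 identifiers, 32158 had a symbol and GRCm38 coordinates. Close paralogs can lose or exchange reads under unique mapping. RNA was extracted with an RNeasy kit per the labels, while the methods also name another kit.

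Log2(value + 1) of genes with a mean of at least 10 was tested in R 4.3.3 by limma 3.58.1 with its trend option. The model held all 9 libraries, and p-values were adjusted by Benjamini-Hochberg across the 12100 genes. Whole reads could be recovered for 100% of values (tolerance 0.01), and on them DESeq2 called 1137 and edgeR 4.0.16 called 668 genes. The fits were tested on simulated data. The simulated libraries were independent, so that test does not cover a library 3 near a mixture of libraries 1 and 2. P-values measure only the spread between these samples, and intervals cover counting error only. Some genes are not reported here, though they count in the totals. The members and lists were chosen with earlier results of these data known. Genes were named by rule: the 12 raised and 12 lowered most of the called genes that averaged 50 or more and did not overlap in libraries 1 and 2, the first 3 members and the most changed members of each list, and the 8 genes furthest apart in each direction between Dox 1 and Dox 2. Alternatives covered the pseudocount, filter, scaling, test, array weights, which groups were modelled, a block for the replicate number, and leaving out each library.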

Additional observations from a re-analysis of the deposited data

How the results depend on the processing

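The number of called genes depended on the libraries and the model. Against 605 genes, it was 369 with a mean of at least 50, 333 with only Dox and Control in the fit, 1555 with array weights (their estimation stopped short of its tolerance), 1137 with DESeq2 on recovered reads and 1018 with no fold change limit. Without libraries 3 it was 0 with limma, 0 with edgeR and 145 with DESeq2. Leaving out 1 library gave 33 to 1500 genes, 241, 124 and 33 without control 1, 2 and 3, and 1500, 1102 and 87 without Dox 1, 2 and 3. It was 581 and 576 with pseudocounts of 0.1 and 8, 630 with no filter, 571 with the same total per library and 668 with edgeR. Genes apart in libraries 1 and 2 numbered 359, 870 with no filter and 183 with a mean of at least 50. Why these counts moved was not tested. Slc22a30 differed by -0.76 on the log2 scale over all libraries, by 1.42 with array weights, and by -2.19 to 1.79 with 1 library left out, 1.79 without Dox 2. Of 102 called genes among the 235 named, 89 or more were called under each other pseudocount, no filter or the same total, 54 by DESeq2 without libraries 3, and 0 by limma or edgeR without them, and in every alternative that tested them all 102 kept their sign.

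Same-numbered control and Dox libraries did not deviate together (r = -0.05, -0.04 and 0.06). With 3 libraries per group, and library 3 near a mixture of libraries 1 and 2, this cannot show whether the numbers pair the mice. Adding a replicate block to limma gave 557 genes, 96 raised and 461 lowered. Counting depth of at least 7426136 reads limits genes of a few reads, such as those in ratios above, more than the others.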
